A study of Mus musculus with 6 samples.

Results

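The genes examined here are 9 receptors for extracellular nucleotides and adenosine, namely *P2rx2*, *P2rx3*, *P2rx4*, *P2rx7*, *P2ry1*, *P2ry2*, *P2ry6*, *P2ry14* and *Adora2b*. They were found by their gene symbols among the 18152 genes of the deposited table, and all 9 were present and passed the filter on low counts. The set was built around *P2rx2* because of its low counts after *Kdf1* deletion in these same libraries, so the genotype difference of all 9 members is given as a description, without a test. RNA came from the inner enamel epithelium (IEE), the layer of the enamel organ that gives rise to ameloblasts, of the mandibular first molar at embryonic stage E18.5. The control group was *Kdf1* fl/fl mice, which the sample labels call wild type, and the other group was *K14-Cre;Kdf1* fl/fl mice, with 3 libraries each. Both groups carry the floxed *Kdf1* allele on a C57BL/6J background. In the latter, called knockout below, Cre under the keratin 14 promoter removes *Kdf1* from epithelial cells and leaves the gene in mesenchyme, vessels and blood cells. The controls were without Cre, so an effect of Cre itself and the loss of *Kdf1* cannot be told apart. The IEE was cut from frozen sections by laser capture microdissection, and how many embryos stood behind each library is not given in the sources used here.

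Cells release ATP and other nucleotides through channels, vesicles and damage, and these act on neighbouring cells before ectonucleotidases degrade them to adenosine. P2X receptors are trimeric cation channels that open on ATP. P2Y receptors are G protein-coupled receptors for ATP, ADP, UTP, UDP or UDP-sugars, and the A2B receptor encoded by *Adora2b* responds to adenosine. P2X2 and P2X3 are best known from sensory neurons and taste nerves, P2X4 from many epithelia and macrophages, and P2X7 from immune cells.

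Since the members are paralogues, it was asked how much sequence they share, as shared reads could move counts from one to another. In the GENCODE M21 transcripts, none of the 2892 different stretches of 50 bases in *P2rx2* occurred in a transcript of another gene. The same share was 0% for *P2rx3*, *P2ry2*, *P2ry6* and *Adora2b*, 0.00897% for *P2ry14*, 1.17% for *P2rx7* and 1.63% for *P2rx4*. It was 22% for *P2ry1*, which shares this part with the gene model Gm37035, so that the counts of *P2ry1* are uncertain. The longest identical run between the coding sequences of any P2X pair was the 26 bases that *P2rx2* shares with *P2rx3*. The P2X subunits are shown over these bases and 10 on each side, because this is the place where reads of *P2rx2* could most easily be confused. In the *P2rx2* line, capitals mark the run shared with *P2rx3*. In the other lines, the stretch with the most bases in common with *P2rx2* is given, and capitals mark bases identical to *P2rx2*.
P2rx2: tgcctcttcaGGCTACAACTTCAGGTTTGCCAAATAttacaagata
P2rx3: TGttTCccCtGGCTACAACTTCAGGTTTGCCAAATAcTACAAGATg
P2rx4: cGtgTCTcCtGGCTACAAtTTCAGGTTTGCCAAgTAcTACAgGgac
P2rx7: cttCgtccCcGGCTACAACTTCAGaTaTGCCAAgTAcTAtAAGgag
P2rx5: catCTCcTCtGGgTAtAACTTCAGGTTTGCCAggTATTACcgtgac
P2rx1: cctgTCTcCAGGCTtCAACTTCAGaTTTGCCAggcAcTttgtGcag
P2rx6: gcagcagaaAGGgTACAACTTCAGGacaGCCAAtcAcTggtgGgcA
Of the 46 bases, *P2rx3* had 39 in common with *P2rx2*, *P2rx4* 34, *P2rx5* 31, *P2rx7* 30, *P2rx1* 28 and *P2rx6* 24. *P2rx4* and *P2rx7* lie next to each other on chromosome 5 with 0 protein-coding genes between them, as do *P2ry2* and *P2ry6* on chromosome 7 (RefSeq, GRCm38.p6).

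Library totals ran from 14713918 to 16675133 estimated counts. *Kdf1* was at 44.3 to 52.7 CPM (counts normalised to the TMM-scaled library size) in the 3 control libraries and at 0, 0.0629 and 0 CPM in the knockout. Across all 14131 genes that passed the filter, 61 differed by at least 1 on the log2 scale with an adjusted p of at most 0.05 (edgeR quasi-likelihood test, Benjamini-Hochberg), which is 0.432% of the genes tested. This criterion lies on a step, as 70 genes had an adjusted p between 0.049 and 0.05. Among the 9 receptors, *P2rx2* was past the criterion, on the lower side, where 0.290% of all genes tested lay. In DESeq2 and in edgeR with the replicate number as a block, 2 of the 9 were past it, *P2rx2* and, on the higher side, *P2ry14*. DESeq2 called 6.94% of all genes tested, 5.05% higher and 1.88% lower, and the blocked fit called 6.09%, 4.16% higher and 1.92% lower. Without regard to p, *P2rx7* and *P2ry14* had a log2 fold change of at least 1 and *P2rx2* one of −1 or less, as had 9.23% and 2.90% of all genes. Control and knockout ranges were separate for 3 of the 9, *P2rx2* below the controls and *P2ry1* and *P2ry14* above them, against 30.7% of all genes tested (16.2% below and 14.5% above). Nothing is read from these counts, because the choice of the members used the same comparison. Microdissected tissue is a mixture. Markers of dental epithelium, led by *Krt5* and *Amelx*, were counted in all libraries, but those of dental papilla and mesenchyme summed to more than them in control replicate 2 and in all 3 knockout libraries. In such tissue, fewer cells of a type cannot be told apart from less RNA per cell.

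The receptors were first ordered by their level in the control libraries on the TPM scale, which corrects for transcript length. *P2rx2* had the highest mean, 10.8 ± 4.62 TPM (SD, n = 3), and *P2rx4* followed with 8.25 ± 0.313 TPM. Their ranges overlapped, and *P2rx2* was above *P2rx4* in 2 of the 3 libraries. *P2rx4* was above the next receptor in every library without overlap. *P2ry2* (2.23 ± 0.746 TPM), *Adora2b* (1.97 ± 0.393 TPM) and *P2ry6* (1.91 ± 0.966 TPM) formed a middle group whose neighbours overlapped. *P2rx7* (0.943 ± 0.326 TPM) overlapped both with *P2ry6* above it and with *P2ry1* (0.903 ± 0.0907 TPM) below it. *P2ry14* (0.457 ± 0.125 TPM) and *P2rx3* (0.360 ± 0.118 TPM) were lowest and overlapped with each other.

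In the knockout libraries the order was headed by *P2rx4* with 9.74 ± 0.960 TPM (SD, n = 3), again without overlap with the next receptor. *P2ry6*, *P2ry14*, *P2rx7*, *Adora2b*, *P2ry2* and *P2ry1* followed with means from 3.45 down to 1.42 TPM, and the ranges of all neighbours in this series overlapped. *P2rx2* was at rank 8 of 9 with 0.823 ± 0.336 TPM, above *P2rx3* with 0.417 ± 0.0351 TPM.

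**Figure D1:**
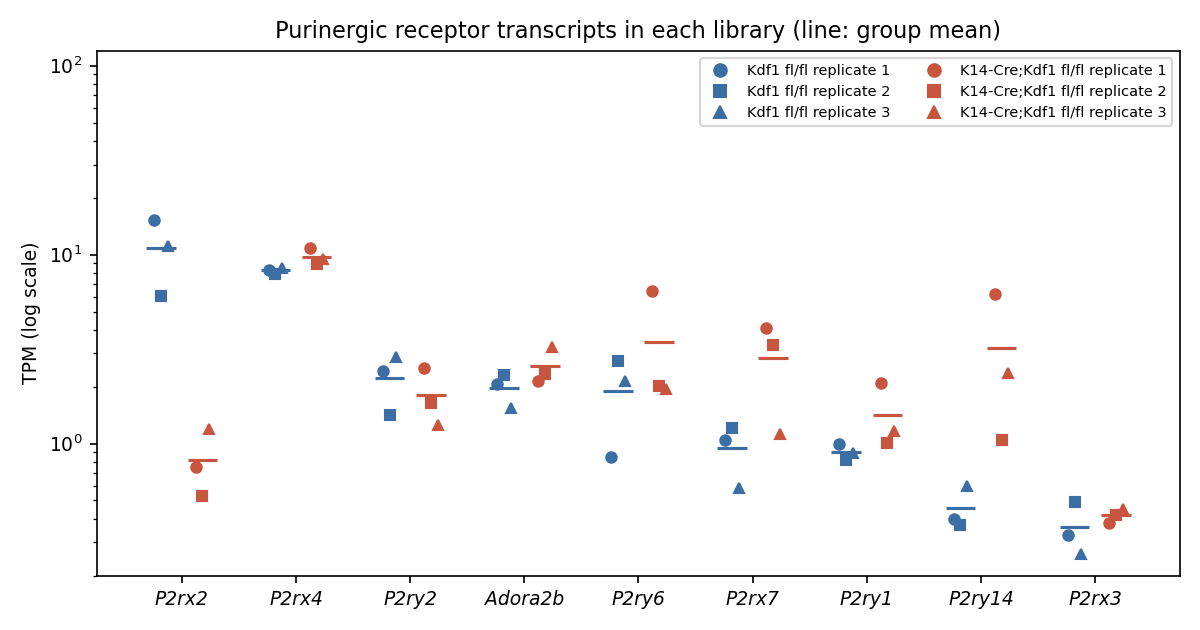
TPM on a log scale for the 9 receptors in each of the 6 libraries, with replicate shown by symbol, genotype by colour and the group mean by a line. *P2rx2* had 6.04 to 15.3 TPM in control and 0.530 to 1.19 TPM in knockout libraries, whereas *P2rx4* stayed between 7.90 and 10.8 TPM.

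*P2rx2* encodes the P2X2 subunit, an ATP-gated channel that desensitises slowly. It had 221, 83 and 174 counts in control replicates 1, 2 and 3, which is 15.3, 6.04 and 11.2 TPM. In the knockout replicates it had 9, 7 and 16 counts, or 0.750, 0.530 and 1.19 TPM. All knockout libraries thus lay below the lowest control library, replicate 2, and the 95% exact Poisson intervals of their counts reached no higher than 26.0 (counting error only). On the CPM scale the means were 9.96 ± 4.51 and 0.688 ± 0.324 CPM (SD, n = 3 per group), a 14.5-fold lower mean in the knockout and a log2 fold change of −3.84 (SE 0.52). The control libraries differed among themselves by more than counting allows, with a coefficient of variation of 45.3% against 7.92% from counting alone. In the knockout group the same values were 47.1% and 30.6%. The transcript was counted in every knockout library, at 0.440 to 1.05 CPM, above the 0.198 CPM that a count of 0 would still allow in the smallest library.

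The genes whose profile over the 6 libraries was most like that of *P2rx2* were sought among 13646 tested genes with a mean of at least 1 CPM. The measure was the mean absolute difference of log2 CPM (prior count 2) after each gene was centred on its control mean. The nearest was *Krt6a*, a keratin of stressed and suprabasal epithelium, with a mean difference of 0.163. *Krt6a* had 108, 25.4 and 73.5 CPM in the control replicates and 4.05, 3.21 and 6.92 CPM in the knockout replicates. It shared with *P2rx2* the highest level in control replicate 1 and the lowest in control replicate 2, and in both genes knockout replicate 3 was the highest of its group. *Cldn4*, a tight junction claudin, followed with 0.331, then *Gpx2*, a glutathione peroxidase, with 0.385, *Cyp4f39*, a fatty acid hydroxylase of epidermal lipid synthesis, with 0.420, and *Angptl7*, a secreted angiopoietin-like protein, with 0.433. Their mean levels were 23.4 ± 10.9, 4.89 ± 1.20, 2.13 ± 0.898 and 4.47 ± 2.21 CPM in the control and 2.35 ± 1.26, 0.473 ± 0.220, 0.172 ± 0.101 and 0.497 ± 0.401 CPM in the knockout libraries (SD, n = 3 per group). *Krt6a* has a close copy, *Krt6b*, and how reads were shared between them is not given in the sources used here. These 5 genes were picked by their likeness, so that their lower level in the knockout is a consequence of the choice.

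**Figure D2:**
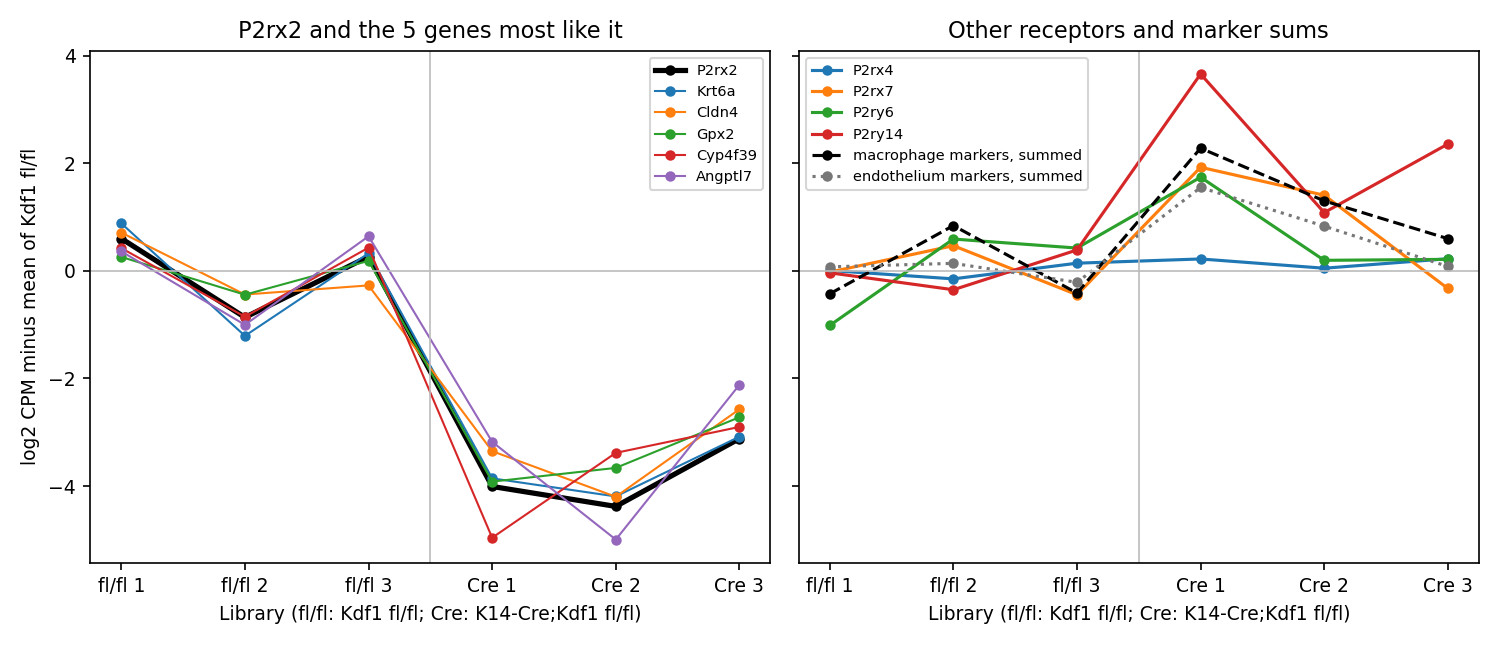
log2 CPM in each library, without a prior count, relative to the control mean, with lines joining the values of one gene or marker sum; replicates have no order. On the left, *P2rx2* and the 5 genes most like it dip in control replicate 2, and on the right *P2rx7*, *P2ry6*, *P2ry14* and the summed macrophage markers are highest in knockout replicate 1, while *P2rx4* stays level.

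Markers of epithelial layers were set beside *P2rx2*, for which the knockout mean was 0.0691 times the control mean. Of all genes tested, edgeR called 0.432%, DESeq2 6.94% and the blocked fit 6.09%, and 24.5% had an unadjusted p of at most 0.05. The 10 markers of dental epithelium summed to 13149 to 25963 CPM in the control and 5596 to 9503 CPM in the knockout libraries, a ratio of 0.395 between the group means. This ratio was carried by the enamel matrix genes *Amelx* and *Ambn* and was 0.595 without them, a sum chosen after the data were seen. Of the 10, edgeR called 1, DESeq2 3 and the blocked fit 4, all lower in the knockout, and 6 had an unadjusted p of at most 0.05, whereas *Epcam* and *Shh* had log2 fold changes of −0.05 and 0.27. The 10 measured of 12 markers of suprabasal and keratinised epithelium summed to 176, 69.0 and 183 CPM in the control replicates and 18.6, 19.3 and 25.8 CPM in the knockout replicates, a ratio of 0.149. Control replicate 3 stood apart for *Krt4* and *Krt13*, keratins of oral epithelium, with 25.9 and 37.0 CPM, where every other library had at most 0.363 CPM. Without these genes, also left out after the data were seen, its sum was 120 CPM and the ratio 0.173. Of the 6 tested, 3 were called, all lower in the knockout, namely *Grhl3*, a transcription factor of the epidermal barrier, and *Krt6a* and *Cldn4*. *Krt6a* had the highest mean of the list, with 69.0 CPM in the control and 4.73 CPM in the knockout. The tested markers that were not called, *Krt1*, *Krt10* and *Lor*, had log2 fold changes of −0.75, −0.26 and 0.08. The ratio of the sums therefore does not hold for the list as a whole. *Krt6a* and *Cldn4* are also the genes most like *P2rx2*, so that this list is not independent of the likeness above. The part of the epithelial layers in the low *P2rx2* counts was not tested.

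*P2rx3* encodes the subunit that joins P2X2 in heteromeric channels of sensory neurons. It had 12, 18 and 10 counts in the control replicates and 15, 15 and 16 counts in the knockout replicates. In TPM these were 0.330, 0.490 and 0.260 against 0.380, 0.420 and 0.450, so that the groups overlapped. The log2 fold change was 0.25 (SE 0.37), and the spread among controls, 28.8%, was close to the 27.4% that counting alone gives. Markers of sensory neurons, led by *Tubb3* and *Stmn2*, summed to 170 to 384 CPM in the control and 80.1 to 186 CPM in the knockout libraries. Of the 4 tested markers edgeR called 0, 1 had an unadjusted p of at most 0.05, and DESeq2 called 1, lower. Of all genes tested, 24.5% had such a p and DESeq2 called 6.94%.

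*P2rx4* encodes a channel found at the plasma membrane and on lysosomes of many cells. It had 8.33, 7.90 and 8.51 TPM in the control replicates and 10.8, 8.91 and 9.51 TPM in the knockout replicates. The knockout values were slightly higher on the TPM scale without overlap, whereas on the CPM scale (11.7, 10.5 and 12.8 against 13.5, 12.02 and 13.6 CPM) the groups overlapped. The log2 fold change was 0.16 (SE 0.17). Its spread between replicates was small, with coefficients of variation of 10.1% and 6.82%, near the 7.31% and 7.01% expected from counting alone.

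*P2rx7* encodes the channel that needs high ATP concentrations and starts inflammasome signalling in macrophages. It had 1.04, 1.21 and 0.580 TPM in the control replicates and 4.07, 3.31 and 1.12 TPM in the knockout replicates. Knockout replicates 1 and 2 were above all controls, and replicate 3 lay among them. The means were 2.31 ± 0.730 and 5.39 ± 3.38 CPM (SD, n = 3 per group). The log2 fold change was 1.22 (SE 0.56), and 0.75 without knockout replicate 1. Knockout libraries differed by 62.7% where counting gives 10.8%.

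*P2rx4* and *P2rx7* are shown by the 250 bases before their first listed starts, since these genes are neighbours and the one was level while the other varied most among the P2X members of the knockout group. The sequences are from RefSeq on build GRCm38.p6, plus strand, chr5:122707294-122707543 for *P2rx4* and chr5:122643677-122643926 for *P2rx7*, and capitals mark the CG pairs.
P2rx4: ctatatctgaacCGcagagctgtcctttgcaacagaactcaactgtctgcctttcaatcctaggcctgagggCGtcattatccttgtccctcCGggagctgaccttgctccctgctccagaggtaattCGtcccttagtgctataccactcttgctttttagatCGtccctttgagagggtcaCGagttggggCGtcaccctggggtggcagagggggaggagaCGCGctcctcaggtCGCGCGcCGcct
P2rx7: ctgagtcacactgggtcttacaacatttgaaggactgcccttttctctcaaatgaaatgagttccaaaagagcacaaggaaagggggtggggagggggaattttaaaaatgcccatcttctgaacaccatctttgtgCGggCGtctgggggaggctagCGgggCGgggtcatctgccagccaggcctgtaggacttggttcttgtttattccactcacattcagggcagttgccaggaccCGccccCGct
The *P2rx4* stretch held 13 CG pairs and the *P2rx7* stretch 6, where 31.5% and 50.4% of the 32851 promoters in the table hold at least as many. Of the 9 members, 6 had an entry in that table.

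Among the P2Y receptors, *P2ry1*, a Gq-coupled ADP receptor, had 1.00, 0.820 and 0.890 TPM in the control replicates and 2.10, 1.01 and 1.16 TPM in the knockout replicates. All knockout libraries were above all controls, but the lowest knockout library, at 2.08 CPM, was only just above the highest control, at 2.02 CPM. The log2 fold change was 0.61 (SE 0.35).

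*P2ry2* encodes the Gq-coupled receptor for ATP and UTP that many epithelia use for calcium signalling and ion secretion. It had 2.41, 1.41 and 2.87 TPM in the control replicates and 2.51, 1.65 and 1.26 TPM in the knockout replicates. The groups overlapped, and the log2 fold change of −0.45 (SE 0.40) was smaller than the spread between replicates. Besides *P2rx2* it was the only one of the 9 with a lower mean in the knockout.

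*P2ry6*, the Gq-coupled UDP receptor through which microglia and macrophages are driven to phagocytosis, had 0.850, 2.74 and 2.14 TPM in the control replicates and 6.40, 2.02 and 1.94 TPM in the knockout replicates. Knockout replicate 1 alone stood above the controls, and the log2 fold change of 0.75 (SE 0.59) became 0.06 without it.

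*P2ry14* encodes the Gi-coupled receptor for UDP-glucose and other UDP-sugars, known from immune cells and some epithelia. It had 6, 5 and 8 counts in the control replicates and 77, 13 and 30 counts in the knockout replicates. In TPM these were 0.4, 0.37 and 0.6 against 6.22, 1.05 and 2.37, so that every knockout library was above every control. The means were 0.395 ± 0.102 and 2.56 ± 2.09 CPM (SD, n = 3 per group), a 6.47-fold higher mean and a log2 fold change of 2.67 (SE 0.70), which was 1.82 without knockout replicate 1. The knockout libraries differed by 81.7% where counting gives 15.8%.

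*Adora2b* encodes the Gs-coupled adenosine receptor of low affinity. It had 2.06, 2.31 and 1.54 TPM in the control replicates and 2.15, 2.33 and 3.23 TPM in the knockout replicates. The groups overlapped, with a log2 fold change of 0.35 (SE 0.34). It was the one member, apart from *P2rx2* and *P2rx3*, for which knockout replicate 3 had the highest level of the knockout group on the TPM scale.

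**Figure D3:**
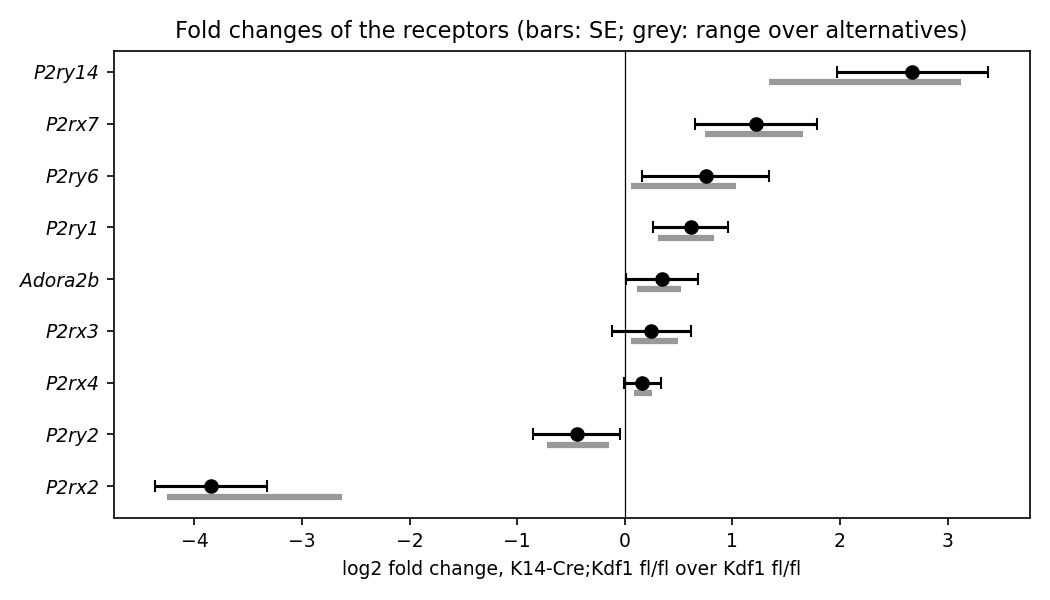
log2 fold change of each receptor, knockout over control, with the point and bar for the edgeR estimate and its SE and the grey line for the range over the alternative tests, scalings, filters and omitted libraries. *P2rx2* stayed between −4.26 and −2.63 and *P2ry14* between 1.34 and 3.13, while the other members lay between −0.73 and 1.65.

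Markers of other cells were examined beside these receptors. The counts below stand against the shares of all genes tested, 0.432% called in edgeR, 6.94% in DESeq2 and 6.09% in the blocked fit. An unadjusted p of at most 0.05 was reached by 24.5% of them. The 11 macrophage markers, led by *Csf1r* and *C1qb*, summed to 48.6, 117 and 49.1 CPM in the control replicates and 317, 161 and 98.9 CPM in the knockout replicates, and 10 of 11 had a higher mean in the knockout, with 0 called in edgeR, 8 at an unadjusted p of at most 0.05 and 6 called in DESeq2. Per 100 CPM of this sum, *P2rx7* was at 3.50 ± 0.951 CPM in the control and 2.72 ± 0.939 CPM in the knockout (SD, n = 3 per group), and *P2ry6* at 2.77 ± 1.52 and 1.61 ± 0.394 CPM. On this scale neither receptor had a higher mean in the knockout. The sum itself had a 2.69-fold higher mean in the knockout, so genes with a smaller rise tend to fall on this scale. *P2rx4*, level in CPM, was at 19.7 ± 9.37 and 8.49 ± 4.81 CPM per 100 CPM of this sum. The scale therefore cannot decide whether macrophages account for the receptor levels. *P2ry14* was at 0.688 ± 0.393 and 1.35 ± 0.763 CPM per 100 CPM of the same sum, and the groups then overlapped. The 8 endothelium markers, led by *Cdh5* and *Pecam1*, summed to 297 to 379 CPM in the control and 364 to 1008 CPM in the knockout libraries, with 8 of 8 higher on average and 0 called in edgeR, 5 at an unadjusted p of at most 0.05 and 2 called in DESeq2. Per 100 CPM of that sum, *P2ry1* was at 0.549 ± 0.125 and 0.474 ± 0.187 CPM. The 8 neutrophil markers, led by *S100a9* and *Ngp*, summed to 3.33 to 5.65 and 30.4 to 77.3 CPM, and 5 of the 6 tested were called, all higher. In each of these 3 lists the highest sum was that of knockout replicate 1, the library in which *P2rx7*, *P2ry1*, *P2ry6* and *P2ry14* were highest. This was not particular to these lists. The same library also had the highest Schwann cell and skeletal muscle sums and the highest papilla and mesenchyme sum of the knockout group. Its sensory neuron sum was the lowest of all libraries. The 10 papilla and mesenchyme markers, led by *Col1a1* and *Col1a2*, summed to 4434 to 23007 and 12075 to 13667 CPM. Most of this sum came from the collagen genes *Col1a1* and *Col1a2*, with log2 fold changes of −0.46 and −0.53, while *Twist1*, *Prrx1*, *Postn* and *Col3a1*, known from mesenchyme, had values of 2.23, 2.59, 3.09 and 2.32. Of the 10 markers 7 had a higher mean in the knockout, 7 had an unadjusted p of at most 0.05 (6 higher), and edgeR called 1, *Twist1*, DESeq2 5 (4 higher) and the blocked fit 6 (5 higher). Schwann cell markers (7 genes, 49.2 to 80.6 and 44.9 to 92.7 CPM) and skeletal muscle markers (6 genes, 3.57 to 4.96 and 4.15 to 11.3 CPM) overlapped between the groups. Of their 4 and 2 tested genes edgeR called 0, with 1 each at an unadjusted p of at most 0.05 and 1 Schwann marker called in DESeq2. No macrophage or endothelium marker was at 0 in any library, and the part of these cells in the receptor levels was not tested.

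The 9 receptors together reached 31.7, 23.3 and 28.6 TPM in the control replicates and 35.4, 21.2 and 22.2 TPM in the knockout replicates, so that the sums overlapped. Their make-up differed. *P2rx2* was 48.2%, 25.9% and 39.1% of the sum in the control replicates and 2.12%, 2.5% and 5.35% in the knockout replicates. Without *P2rx2*, the other 8 summed to 17.0 ± 0.524 TPM in the control and 25.5 ± 7.94 TPM in the knockout (SD, n = 3 per group), with no overlap. The P2X members other than *P2rx2*, namely *P2rx3*, *P2rx4* and *P2rx7*, summed to 9.35 to 9.70 TPM in the control and 11.1 to 15.2 TPM in the knockout libraries. The 4 P2Y members summed to 4.66, 5.34 and 6.50 TPM in the control and 17.2, 5.73 and 6.73 TPM in the knockout replicates. In the knockout, *P2rx4* alone made up 30.5% to 42.8% of the sum, and *P2rx2* stood at 0.0847 ± 0.0354 times the level of *P2rx4*, against 1.30 ± 0.534 times in the control.

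**Figure D4:**
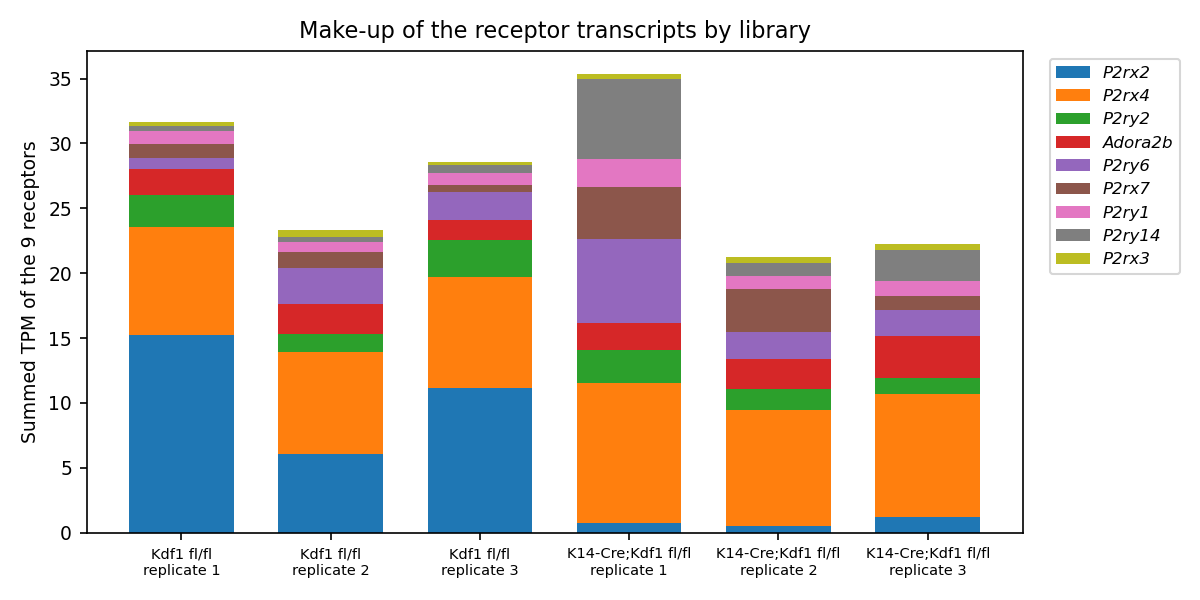
Summed TPM of the 9 receptors in each library, stacked by receptor. *P2rx2* makes up 25.9% to 48.2% of the stack in control and 2.12% to 5.35% in knockout libraries, and knockout replicate 1 has the tallest stack, 35.4 TPM, with the largest parts of *P2ry6* and *P2ry14*.

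The other 10 receptors of the P2X, P2Y and adenosine families were all listed, and 5 passed the filter. The 5 that did not, *P2rx1*, *P2rx6*, *P2ry4*, *P2ry10* and *Adora3*, had at most 20 counts in any library. The 9 members held 80.4% to 85.9% of the TPM of all 19 receptors in the control and 75.1% to 79.2% in the knockout libraries. None of the 5 tested was called in edgeR or DESeq2, and 1 had an unadjusted p of at most 0.05, as had 24.5% of all genes tested. That one was *P2ry12*, the ADP receptor of microglia and platelets, at 0.628, 0.909 and 0.569 CPM in the control and 2.34, 2.08 and 0.989 CPM in the knockout replicates (log2 fold change 1.35, SE 0.45, edgeR adjusted p = 0.134). *P2rx5*, an ATP-gated channel subunit, was at 1.95 ± 0.329 and 1.35 ± 0.364 CPM (SD, n = 3 per group), and *Adora2a*, the high-affinity Gs-coupled adenosine receptor, at 2.39 ± 0.603 and 3.40 ± 1.49 CPM, with edgeR adjusted p values of 0.391 and 0.474.

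The rest of the pathway was represented by lists for nucleotide release, ectonucleotidases, adenosine uptake and metabolism, the Gq arm, the Gs and Gi arm and the inflammasome. With the other receptors these hold 88 genes, of which 87 were listed and 71 tested. In edgeR, 0 of the 71 passed the criterion (0.432% of all genes tested), 23 had an unadjusted p of at most 0.05 (13 higher and 10 lower in the knockout), as had 24.5% of all genes tested, and the median log2 fold change was 0.13 against −0.00 over all genes. DESeq2 called 7, 4 higher and 3 lower, against 6.94% of all genes. With the replicate block edgeR called 5, 2 higher and 3 lower, against 6.09% of all genes. These 5, *Lrrc8e*, *Slc17a9*, *Dpp4*, *Plcb1* and *Adcy5*, were all among those called by DESeq2, which added *Enpp3* and *Adcy7*.

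For nucleotide release, 17 of 20 genes were tested, and 6 had a higher and 11 a lower mean in the knockout. *Slc17a9*, the transporter that loads ATP into vesicles, was at 19.4, 24.8 and 52.1 CPM in the control and 6.45, 10.8 and 19.3 CPM in the knockout replicates (log2 fold change −1.40, SE 0.50, edgeR adjusted p = 0.150, and 0.00833 with the replicate block). The highest knockout library lay just under the lowest control. *Lrrc8e*, a subunit of volume-regulated anion channels, was at 22.0, 15.2 and 21.9 against 8.29, 8.05 and 10.7 CPM (log2 fold change −1.13, SE 0.22, edgeR adjusted p = 0.0637, and 0.0198 with the block). *Calhm5*, a calcium homeostasis modulator family member, was at 3.92 ± 0.0893 and 2.02 ± 0.637 CPM (SD, n = 3 per group; edgeR adjusted p = 0.138).

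Of the ectonucleotidases, 8 of 9 were tested, with 5 higher and 3 lower means in the knockout. *Alpl*, the tissue-nonspecific alkaline phosphatase that is abundant in the stratum intermedium next to the IEE, was at 772, 898 and 876 CPM in the control and 426, 443 and 466 CPM in the knockout replicates. It reached an adjusted p of 0.0498 in edgeR with a log2 fold change of −0.93 (SE 0.13), which is short of the fold set by the criterion. *Acpp*, prostatic acid phosphatase, which hydrolyses AMP, was at 356, 402 and 618 against 204, 188 and 372 CPM (edgeR adjusted p = 0.165, and 0.0167 with the block, log2 fold change −0.85). *Enpp3*, a nucleotide pyrophosphatase, was at 2.57, 5.21 and 2.59 against 13.5, 8.05 and 4.81 CPM (log2 fold change 1.35, edgeR adjusted p = 0.142, DESeq2 adjusted p = 0.0485).

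For adenosine uptake and metabolism, 9 of 12 genes were tested, with 3 higher and 6 lower means. *Dpp4*, a cell-surface peptidase that in several species binds adenosine deaminase, was at 20.7 ± 7.42 CPM in the control and 7.03 ± 2.34 CPM in the knockout (SD, n = 3 per group), with no overlap (log2 fold change −1.56, SE 0.35, edgeR adjusted p = 0.0726, and 0.0202 with the block). *Slc29a3*, a lysosomal nucleoside transporter, was at 52.7 ± 0.737 and 41.5 ± 4.19 CPM, and *Adk*, adenosine kinase, at 58.8 ± 2.54 and 46.1 ± 8.01 CPM (SD, n = 3 per group; edgeR adjusted p = 0.139 and 0.200).

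In the Gq arm, all 11 genes were tested, with 7 higher and 4 lower means. *Itpr3*, the inositol trisphosphate receptor that is most abundant in many epithelia, was at 502, 410 and 643 CPM in the control and 287, 254 and 271 CPM in the knockout replicates, with no overlap (log2 fold change −0.94, SE 0.18, edgeR adjusted p = 0.0637, and 0.0210 with the block). *Plcb1*, a phospholipase C activated by Gq, was at 3.01, 2.12 and 2.78 against 14.9, 5.92 and 5.87 CPM (log2 fold change 1.75, SE 0.43, edgeR adjusted p = 0.0841, and 0.0288 with the block). *Plcb4*, of the same family, was at 17.96, 19.1 and 18.3 against 41.8, 33.7 and 23.3 CPM (log2 fold change 0.84, edgeR adjusted p = 0.0889).

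In the Gs and Gi arm, 16 of 17 genes were tested, and 14 had a higher mean in the knockout, where 49.5% of all genes tested did. *Adcy5*, an adenylyl cyclase, was at 3.08, 4.06 and 3.10 CPM in the control and 29.2, 11.3 and 7.71 CPM in the knockout replicates (log2 fold change 2.23, SE 0.51, edgeR adjusted p = 0.0735, and 0.0387 with the block). *Adcy7*, the cyclase known from blood cells, was at 12.2, 11.7 and 9.60 against 34.1, 21.2 and 15.0 CPM (log2 fold change 1.07, SE 0.31, edgeR adjusted p = 0.107, DESeq2 adjusted p = 0.0168). *Gnao1*, a G alpha subunit abundant in nerve cells, was at 16.8 ± 4.32 and 33.6 ± 16.5 CPM (SD, n = 3 per group; edgeR adjusted p = 0.150). For these 3 genes, as for *Plcb1* and *Enpp3*, knockout replicate 1 was the highest library. It was also the highest for the macrophage, endothelium, neutrophil, Schwann cell and skeletal muscle sums.

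Of the 9 genes that act after P2X7 in immune cells, 5 were tested, with 4 higher and 1 lower mean. EdgeR and DESeq2 called 0 of them, and 2 had an unadjusted p of at most 0.05, as had 24.5% of all genes tested. *Nlrp3*, *Il1a* and *Il1b* were under the filter, with at most 13, 3 and 3 counts in any library, as was *Casp4* with at most 51. *Pycard*, the inflammasome adaptor ASC, was at 10.4 ± 2.06 and 6.27 ± 1.07 CPM (SD, n = 3 per group), *Il18* at 0.533 ± 0.378 and 1.72 ± 0.675 CPM and *Gsdmd*, which forms the pyroptotic pore, at 3.59 ± 1.30 and 7.53 ± 4.90 CPM. Their edgeR adjusted p values were 0.135, 0.141 and 0.240.

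**Figure D5:**
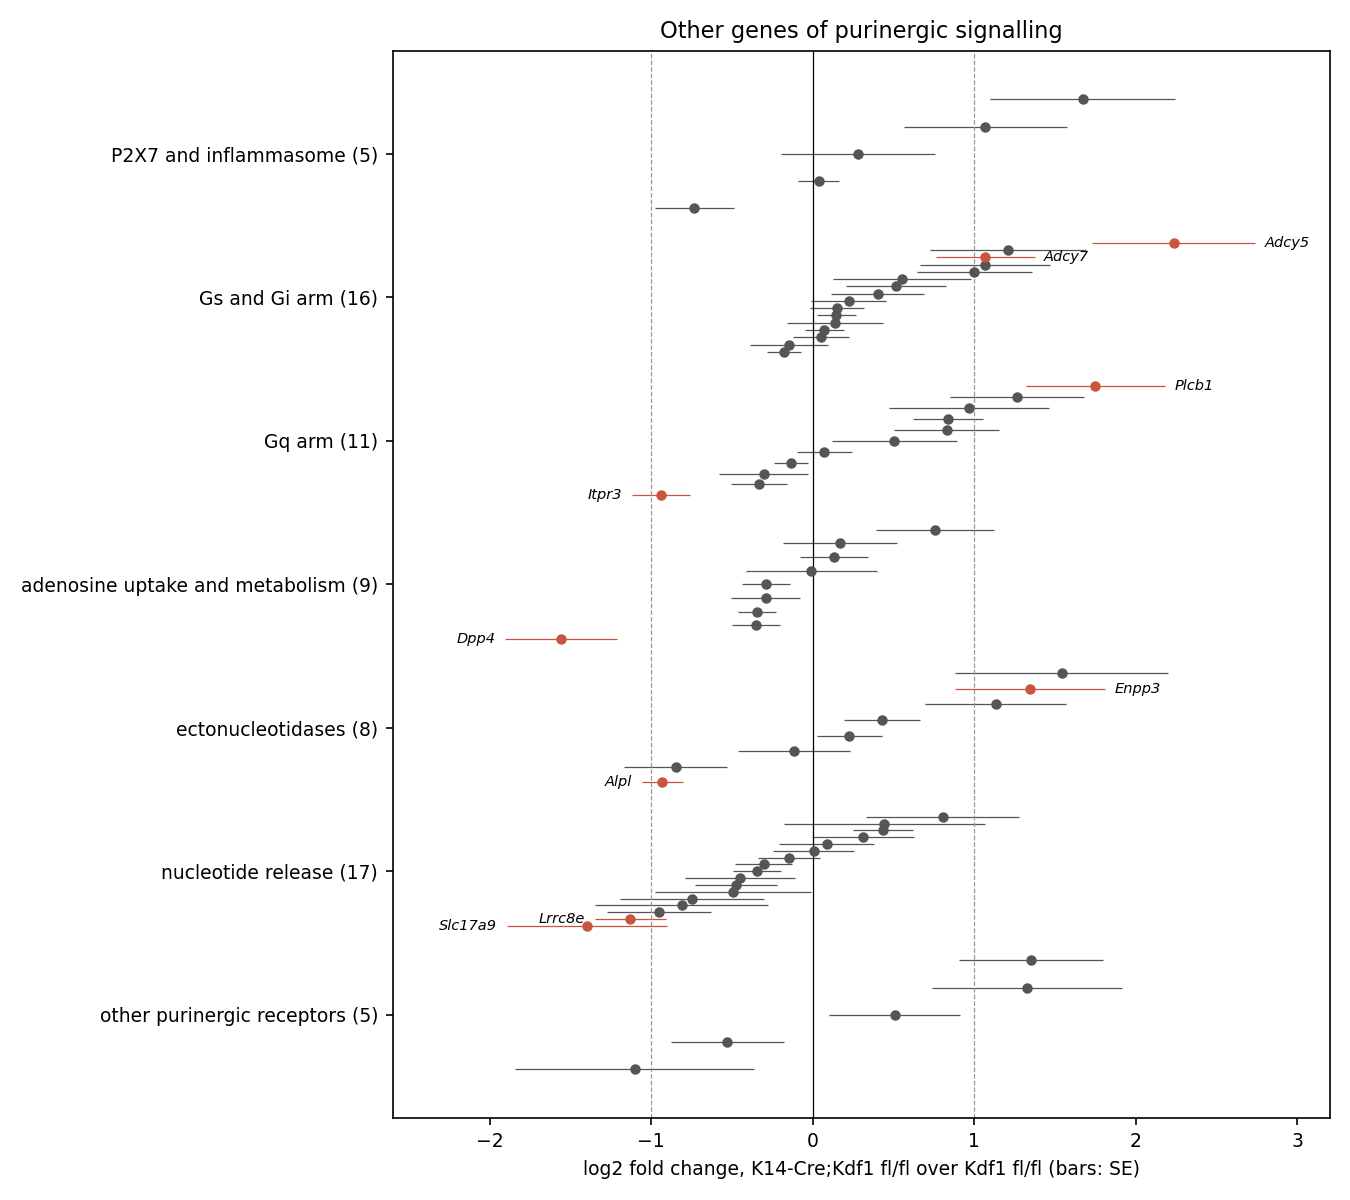
log2 fold changes with SE of the 71 tested genes of purinergic signalling by list, with the number tested in brackets. Red points are genes past the criterion in DESeq2 or with the replicate block, and *Alpl* and *Itpr3*; dashed lines mark a log2 fold change of 1 either way, and the largest of the fits are *Adcy5* with 2.23 and *Dpp4* with −1.56.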

How the data were processed

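RNA-seq libraries were made from laser-captured E18.5 IEE, with 3 libraries each from controls (*Kdf1* fl/fl) and knockouts (*K14-Cre;Kdf1* fl/fl). The submitters' processing notes name BWA 0.7.12, Picard 2.6.0 and StringTie without giving their roles. The genome build is not given in the sources used here. The authors deposited 1 table. Its estimated counts are the authors' reads assigned per gene, without normalisation, and 10.9% to 11.5% of them in a library were not whole. The TPM values were scaled by the authors for transcript length and to an equal total, and were used here for levels and for 2 alternative tests. The deposited FPKM values and the 6 columns of the authors' means were not used. A count of 0 allows 3 counts, or 0.182 to 0.198 CPM, and this covers counting error only.

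Counts were rounded, filtered with filterByExpr (14131 genes kept) and scaled by TMM in edgeR 4.0.16 (R 4.3.3). The groups were compared across all tested genes by robust quasi-likelihood fits with Benjamini-Hochberg adjustment. The SE is the log2 fold change divided by the square root of the F statistic. The criterion was that of the study's appendix, a log2 fold change of 1 or more either way and an adjusted p of 0.05 or less. CPM values use the TMM-scaled library sizes, and log2 CPM a prior count of 2. Nothing states how the replicates relate to litters, so that p values measure the spread between these libraries. Chi-square per degree of freedom between libraries of a group was 35.4 to 77.3, so none was a duplicate. After subtraction of the group means, libraries with the same replicate number correlated at 0.135, 0.324 and 0.499 across genes. The highest value between libraries of different numbers was 0.143, above that of replicate 1. No source used here pairs the libraries, and these values do not settle whether the numbers are pairs. As every same-number value was over 0.1, the edgeR fit was repeated with this number as a block, as an alternative only. The p values with the block hold only if the numbers are true pairs.

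The members and gene lists were chosen with earlier results of these data known. By rule, the named genes are the 9 members, the 5 genes most like *P2rx2*, the 2 most abundant markers of each cell type and *Kdf1*. Up to 3 genes per pathway list with the lowest p and a mean of at least 1 CPM were added to these. Other genes of the lists were named outside this rule, with their values known. Among them are *Ambn*, *Epcam*, *Shh*, *Grhl3*, *Krt1*, *Krt10*, *Lor*, *Krt4*, *Krt13*, *Twist1*, *Prrx1*, *Postn*, *Col3a1* and the genes under the filter. *Acpp* is listed in the table for the gene also called *Acp3*. The alternatives were DESeq2 1.42.0, other scalings and filters, the replicate block, limma 3.58.1 on log2(TPM + 1) and log2(TPM + 0.1), and the omission of each library. The procedure was tested on simulated counts. Sequences came from RefSeq (GRCm38.p6) and GENCODE M21.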

Additional observations from a re-analysis of the deposited data

How the results depend on the processing

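The log2 fold change of *P2rx2* was −3.84 and lay between −4.26 and −3.52 when 1 library was left out. It was −2.63 on log2(TPM + 1), where the pseudocount compresses low values by construction. The number of the 9 receptors past the criterion was 1. It was 2 with DESeq2 and with the replicate block, and 0 with DESeq2's size factors in edgeR, with library size alone and with at least 10 counts in every library, a filter that *P2rx2* and *P2ry14* did not pass. With 1 library left out it was 0 to 1. It was 0 without control replicate 1 or 3 or knockout replicate 1 or 2. Over all genes the count of 61 became 980 with DESeq2, 860 with the replicate block, 7 with DESeq2's size factors, 9 with library size alone, 103 without a filter, 6 with at least 10 counts in every library and 31 on log2(TPM + 1). With 1 library left out it was 1 to 465, the latter without knockout replicate 3. It was 16 without control replicate 2 and 1 without each of the other 4. Of the pathway genes, 0 were past the criterion in edgeR, and 7 with DESeq2, 5 with the replicate block and 0 to 5 with 1 library left out, the 5 again without knockout replicate 3. Every receptor and every pathway gene named by p kept its direction in all alternatives that gave a value. Apart from the cases given, the causes were not tested. The values of *P2rx3*, the knockout values of *P2rx2* and the control values of *P2ry14* rest on fewer than 20 counts a library. The same holds for *P2ry14* in knockout replicate 2 and *P2ry6* in control replicate 1.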
